A study of Mus musculus with 20 samples.

Results

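The Egr and Nr4a genes encode transcription factors whose transcripts appear within minutes of many cell stimuli, and they were examined here together with the Nab corepressors and with Ier2 and Ier3, 10 genes in all, chosen by name (Egr1, Egr2, Egr3, Nab1, Nab2, Nr4a1, Nr4a2, Nr4a3, Ier2 and Ier3). All 10 were among the 24421 genes of the count table, and all 10 were among the 12465 genes that kept enough reads to be tested. Bone marrow-derived dendritic cells (BMDCs) were grown from wild-type C57BL/6 mice with GM-CSF at 40 ng/mL for 8 days. The cells were then exposed for 4 hours to endotoxin-free ovalbumin alone (Ova) or to insoluble immune complexes of ovalbumin with rabbit IgG against it (IC), with I-BET151 (iBET) at 3.3 uM or with its DMSO solvent, given as 5% in the labels. This made 4 groups of 5 libraries, DMSO with Ova, DMSO with IC, iBET with Ova and iBET with IC, and mice A to E each gave 1 library to every group. The labels say that drug and stimulus were added together, whereas the study's methods have iBET added shortly before the stimulus. The study used mice of both sexes, and the sex and age of mice A to E are not given in the sources used here. No group was left without ovalbumin, so the level of these genes in unstimulated cells was not measured, and 1 time point was taken.

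The genes differ in role. EGR1, EGR2 and EGR3 are zinc finger proteins that bind the same GC-rich DNA site, and their genes are induced through the ERK kinases and serum response factor, which binds a DNA motif called the CArG box. NAB1 and NAB2 bind the EGR proteins and repress the transcription they drive. NR4A1, NR4A2 and NR4A3 are orphan nuclear receptors, induced by calcium, cyclic AMP and antigen receptor signals, whose transcription factors include CREB and MEF2. IER2 is a short-lived nuclear protein induced by growth factors, and IER3 is a stress-induced regulator of cell survival and a target of NF-kB. iBET blocks the binding of the BET proteins to acetylated histones, through which they promote transcription. Immune complexes engage Fc gamma receptors, whose signals include ERK and calcium.

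The promoters of the members were read as a description, with no test of a link to the changes with iBET. RefSeq windows on build GRCm38.p6, from 250 bases before to 50 bases after a start site, were at hand for 7 of the 10 members, in 11 windows; Egr1, Egr3 and Ier2 had none. The windows below, 300 bases each, belong to Egr2 and Nab1, which fell with iBET, and to Nr4a2 and Ier3, which rose. Each is written 5′ to 3′ on the strand of its gene, and capitals mark matches to the CArG box, the EGR site (GCGNGGGCG), the NF-kB site or the TATA box (TATAAA) on either strand. Egr2 is shown at chr10:67537619-67537918 on the plus strand, Nab1 at chr1:52500399-52500698 on the minus strand, Nr4a2 at chr2:57123954-57124253 on the minus strand, and Ier3 at chr17:35821463-35821762 on the plus strand.
Egr2: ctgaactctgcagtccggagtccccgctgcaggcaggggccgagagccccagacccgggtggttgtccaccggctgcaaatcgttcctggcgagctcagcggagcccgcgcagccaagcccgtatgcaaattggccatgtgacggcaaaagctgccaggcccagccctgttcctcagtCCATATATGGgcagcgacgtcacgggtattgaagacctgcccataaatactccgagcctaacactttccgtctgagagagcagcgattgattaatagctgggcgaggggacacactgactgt
Nab1: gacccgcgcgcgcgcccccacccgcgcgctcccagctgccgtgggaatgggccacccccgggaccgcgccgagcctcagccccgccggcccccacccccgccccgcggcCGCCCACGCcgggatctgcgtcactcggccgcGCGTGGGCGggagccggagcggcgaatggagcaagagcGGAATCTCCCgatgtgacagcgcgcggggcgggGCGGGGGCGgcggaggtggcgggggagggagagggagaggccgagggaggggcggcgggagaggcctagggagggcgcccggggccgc
Nr4a2: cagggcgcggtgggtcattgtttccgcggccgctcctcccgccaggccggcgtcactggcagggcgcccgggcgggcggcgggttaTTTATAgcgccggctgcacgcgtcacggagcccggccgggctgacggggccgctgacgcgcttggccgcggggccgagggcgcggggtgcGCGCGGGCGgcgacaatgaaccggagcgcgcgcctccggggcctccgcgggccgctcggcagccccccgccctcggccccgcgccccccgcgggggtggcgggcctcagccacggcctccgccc
Ier3: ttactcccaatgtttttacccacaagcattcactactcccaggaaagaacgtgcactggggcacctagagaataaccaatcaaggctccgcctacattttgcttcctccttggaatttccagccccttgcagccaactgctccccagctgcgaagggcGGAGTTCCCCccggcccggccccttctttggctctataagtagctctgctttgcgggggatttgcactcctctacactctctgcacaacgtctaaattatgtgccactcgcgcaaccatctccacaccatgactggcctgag

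Counting the start site as 0, the CArG box of the Egr2 window began at -72. A CArG box was present in 4 of the 5 Egr2 windows and in 1.63% of the 32851 windows of all genes. The Egr2 windows that begin at 67537619, 67537620 and 67537680 overlap and hold the same box, CCATATATGG. The window at 67537316 held another, CCTTTTTTGG, and the window at 67535249 held none. The Nab1 window held 3 EGR sites, at -141, -109 and -38, and the windows of Nr4a2 and Nr4a1 held 1 each, at -74 and -60, where 5.55% of all windows held at least 1. G and C made up 81.7% of the bases in the Nab1 and Nr4a2 windows and 72.3% in the Nr4a1 window. The part of this content in the matches was not tested. In the Ier3 window the capitals are a match to the NF-kB site at -92, a motif present in 8.46% of all windows. A match to it also began at -71 in the Nab1 window, at -3 in the Nr4a1 window and at -117 in 1 of the 5 Egr2 windows, not the one shown. The capitals at -164 in the Nr4a2 window match the TATA box on the opposite strand, as did 13.6% of windows on either strand. The core of the cyclic AMP response element (TGACG), part of the full element (TGACGTCA), was not capitalised. It occurred 4 times in the window of each of the 3 Nr4a genes, and 20.8% of all windows held at least 1. The core was also at -111 and -55 in the Egr2 window shown and at -123 in the Nab1 window. No member window held the full element, the NR4A site (AAAGGTCA) or the AP-1 site (TGANTCA), which were in 1.79%, 1.51% and 7.81% of windows. The Nab2 window held none of the motifs searched. The shares over all windows count those with at least 1 match, and windows with several matches were not counted apart. These are matches of letters, and binding was not measured.

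**Figure D1:**
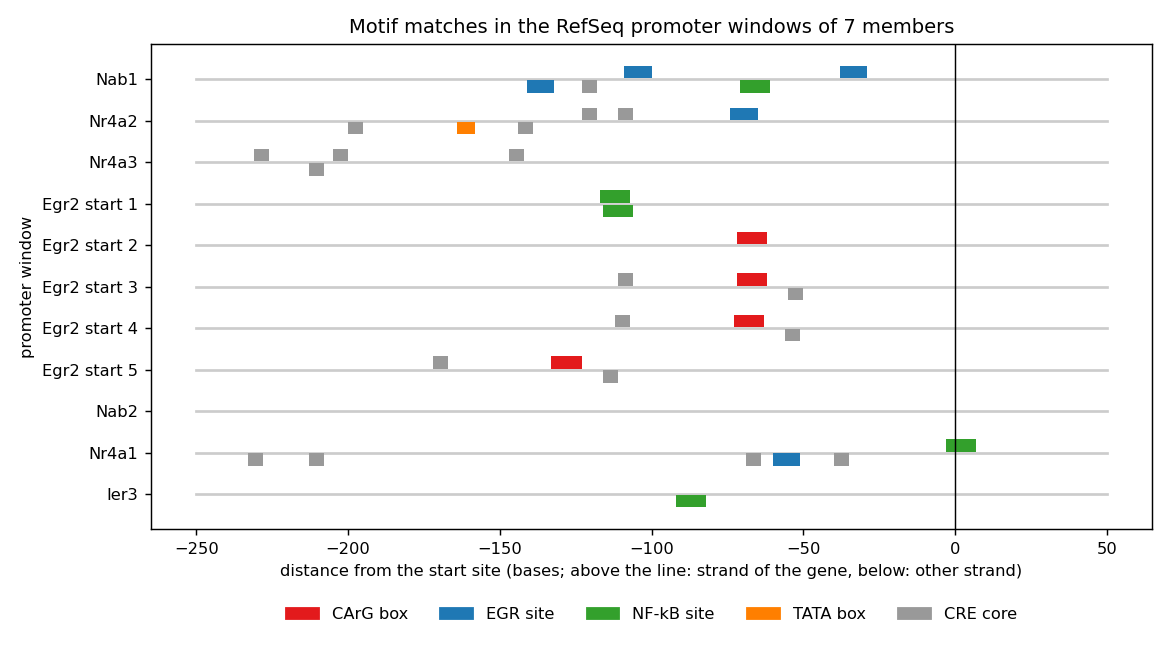
Matches to 5 motifs in the 11 promoter windows of 7 members, plotted by distance in bases from the start site, with matches on the strand of the gene above each line and those on the other strand below it. Egr2 has 5 annotated starts, 4 of them with a CArG box, in part the same box in overlapping windows. Nab1 has 3 EGR sites. The 3 Nr4a genes have 4 cores of the cyclic AMP response element (CRE) each, and windows of Egr2 and Nab1 hold cores as well.

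The libraries held between 16447491 and 29245150 reads assigned to genes (median 21764663). iBET moved most of the tested genes, so the share of all genes called is given beside each count of members. Mice A and B stood apart from mice C, D and E in all 4 groups, at -33.8 to -18.6 against 9.84 to 23.5 on the second principal component, which took 14.9% of the variance. No source used here names a batch for them, so values within each set are given where they bear on a member. The summed level of dendritic cell and GM-CSF culture markers was 7403 to 9886 CPM (reads scaled to 1000000 per library) with DMSO and Ova and 9271 to 11803 CPM with iBET and Ova, and that of macrophage markers was 1695 to 2277 CPM and 1167 to 1499 CPM. With IC these sums were 8418 to 10883 CPM with DMSO and 10592 to 14006 CPM with iBET for the dendritic cell list, and 1704 to 2291 CPM and 1217 to 1726 CPM for the macrophage list. Itgax and Cd74, which mark these cells, were high in every group, whereas Ciita, the activator of MHC class II genes, had a median of 46.2 CPM with DMSO and Ova and 1.46 CPM with iBET and Ova. The lists did not move as a whole between these groups. In the dendritic cell list, the medians were 2715 and 4310 CPM for Csf2rb and 2.82 and 0.225 CPM for Flt3. Those of Zbtb46 were 31.9 and 24.7 CPM, and those of H2-Aa 501 and 454 CPM. In the macrophage list, Csf1r had 1038 and 577 CPM and Adgre1 164 and 155 CPM. T cell markers together reached at most 1.37 CPM and B cell markers at most 0.772 CPM. These are bulk libraries, in which fewer cells of a type and less RNA per cell cannot be told apart, and the part of the marker shift in the results was not tested.

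With iBET, the members split. In Ova, 7 of 10 members passed the edgeR quasi-likelihood test at an adjusted p of 0.05, against 56.6% of all tested genes. Egr1, Nr4a2, Ier2 and Ier3 were higher (4 of 10, background 27.7%), and Egr2, Nab1 and Nab2 were lower (3 of 10, background 28.9%). In IC the same 7 genes were called in the same directions, against 56.1% of all genes (27.1% higher and 29% lower). Each of the 7 moved in its direction in 5 of 5 mice in both comparisons, and the share of all genes that did so was not counted. At this threshold the number of members called was thus near the background, and it is no result about these genes. Where a log2 fold change of at least 1 was also asked for, 5 members were called in Ova and 4 in IC. Of the 12465 tested genes, 1865 and 1867 were called in this way, a smaller share, and the difference was not tested. In Ova the groups did not overlap for 4 members higher and 3 lower, against 18.5% and 19.5% of all genes. In IC they did not overlap for 3 members higher and 3 lower, against 21.1% and 21.6%. With the mouse as a block, 8 members were called in each comparison, against 68.7% of genes in Ova and 68% in IC, and the added gene was Nr4a3, which made 4 lower in each (background 35.2% and 35.4%).

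**Figure D2:**
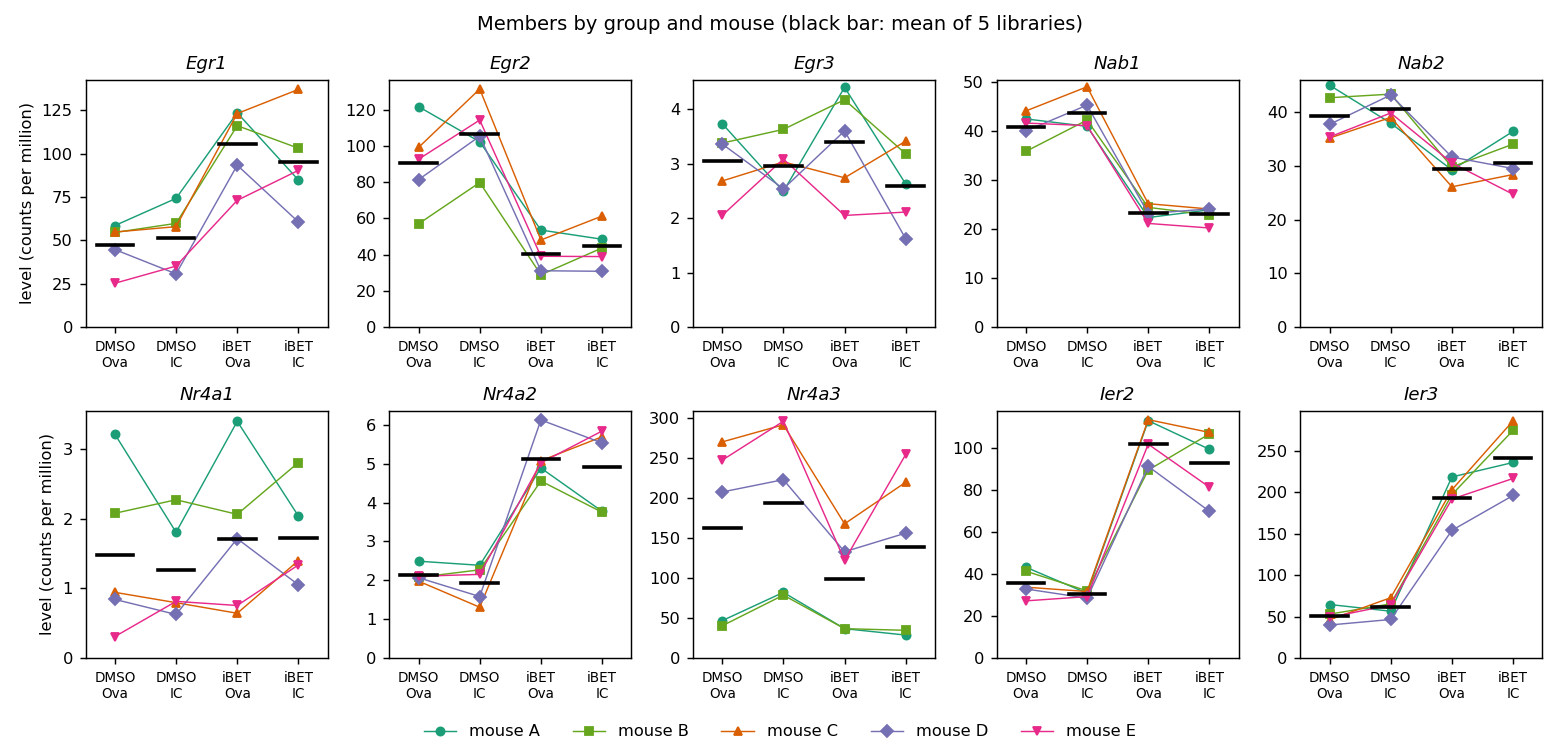
Level of each of the 10 members in CPM in the 20 libraries, by group, with 1 line per mouse and a black bar for the mean of 5 libraries; each vertical axis starts at 0. With iBET, Ier2, Ier3 and Nr4a2 stand above all DMSO libraries and Nab1 below them, while Nr4a3 and Nr4a1 are sorted by mouse.

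Within the Egr family, Egr1 rose and Egr2 fell with iBET, while Egr3 stayed low throughout. Egr1 (chromosome 18, 34859823 to 34864984, plus strand in GENCODE M21 on GRCm38) is the founding member, a factor of growth and stress responses. In Ova, mice A to E had 58.6, 54.6, 54.9, 44.8 and 25.3 CPM of Egr1 with DMSO and 124, 116, 123, 93.4 and 73.2 CPM with iBET. All 5 iBET libraries lay above all 5 DMSO libraries, as was the case for 18.5% of all genes. The means were 47.6 ± 13.5 and 106 ± 22.1 CPM (SD, n = 5), a 2.22-fold rise (log2 fold change 1.15 ± 0.26 SE, adjusted p = 0.0007809 by edgeR).

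In IC the rise of Egr1 was 1.85-fold, and here the groups overlapped. The 5 mice had 74.3, 59.9, 58.0, 30.8 and 35.2 CPM with DMSO and 84.9, 103, 137, 60.7 and 90.4 CPM with iBET. Mouse D with iBET, at 60.7 CPM, was below mouse A with DMSO, but within each mouse the iBET library was the higher. The log2 fold change was 0.89 ± 0.26 (adjusted p = 0.006205 by edgeR). Fitted on mice A and B alone it came to 0.51 (adjusted p = 0.01269), and on mice C, D and E alone to 1.24 (adjusted p = 0.005199).

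Egr2 (chromosome 10, 67535475 to 67542188, plus strand), a regulator of myeloid and lymphoid cells, went the other way. Its level in Ova was 122, 57.0, 99.1, 81.3 and 92.6 CPM in mice A to E with DMSO, and 53.6, 28.9, 48.1, 31.1 and 39.1 CPM with iBET. In IC it was 102, 79.8, 131, 105 and 114 CPM with DMSO and 48.5, 43.7, 61.3, 30.8 and 38.9 CPM with iBET. The iBET libraries lay below all DMSO libraries of the same stimulus, as for 19.5% of genes in Ova and 21.6% in IC. Egr2 was 2.25-fold lower with iBET in Ova (log2 fold change -1.17 ± 0.21, adjusted p = 8.416e-05 by edgeR) and 2.39-fold lower in IC (-1.25 ± 0.21, adjusted p = 3.841e-05). Fitted on mice A and B alone, the fall in IC was -0.96 on the log2 scale with an adjusted p of 0.05086, which became 0.002449 with the mouse as a block.

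The order of Egr1 and Egr2 was therefore different with and without the drug. Per kb of exon, Egr2 averaged 26.6 ± 6.98 CPM and Egr1 10.6 ± 3.01 CPM with DMSO and Ova (SD, n = 5). With iBET and Ova, Egr2 averaged 11.8 ± 3.13 CPM per kb and Egr1 23.6 ± 4.92 CPM per kb. The ratio of Egr2 to Egr1 per kb was above 1 in 10 of 10 DMSO libraries, from 1.38 to 4.82, and above 1 in 0 of 10 iBET libraries, where it ran from 0.328 to 0.754. This ratio was looked at after the fold changes were known and follows from them, so it has no test.

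**Figure D3:**
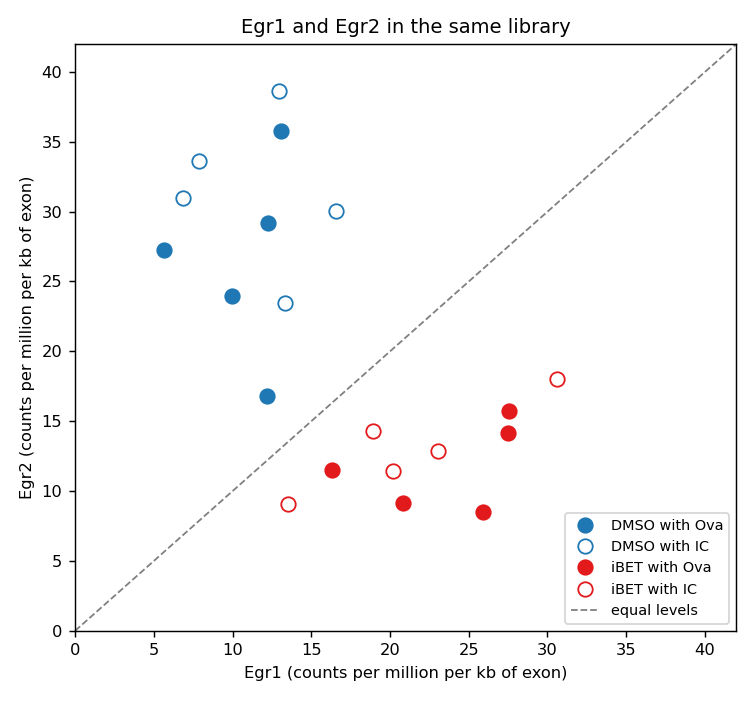
Egr2 against Egr1 in each of the 20 libraries, both in CPM per kb of exon on linear axes, with filled circles for Ova, open circles for IC, blue for DMSO and red for iBET; the dashed line marks equal levels. The 10 DMSO libraries lie above the line and the 10 iBET libraries below it.

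Egr3 (chromosome 14, 70077203 to 70082614, plus strand), a close relative of Egr2 with functions in lymphocytes and neurons, had 34 to 109 reads per library. It spanned 2.05 to 3.74 CPM with DMSO and Ova, 2.49 to 3.63 CPM with DMSO and IC, 2.05 to 4.40 CPM with iBET and Ova and 1.62 to 3.42 CPM with iBET and IC. The groups overlapped in every comparison. The log2 fold change with iBET was 0.15 in Ova (95% interval -0.31 to 0.62, adjusted p = 0.5769 by edgeR) and -0.19 in IC (-0.66 to 0.28, adjusted p = 0.5005). Both intervals reach to either side of 0, so no direction can be given.

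The genes of both corepressors fell with iBET. Nab1 (chromosome 1, 52457294 to 52500679, minus strand) had 42.5, 35.9, 44.1, 40.0 and 41.6 CPM in mice A to E with DMSO and Ova, and 22.4, 24.4, 25.2, 23.2 and 21.2 CPM with iBET and Ova. With IC it had 41.0, 42.3, 49.0, 45.3 and 41.1 CPM with DMSO and 23.9, 22.9, 24.1, 24.1 and 20.2 CPM with iBET. The gap between the groups was wide and the spread among mice small: the highest iBET library was at 25.2 CPM and the lowest DMSO library at 35.9 CPM. The fall was 1.76-fold in Ova (log2 fold change -0.81 ± 0.07, adjusted p = 1.1e-08 by edgeR) and 1.90-fold in IC (-0.92 ± 0.07, adjusted p = 1.818e-09).

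Nab2 (chromosome 10, 127660918 to 127668568, minus strand), whose gene is itself a known target of EGR proteins, moved less. Its mean was 39.2 ± 4.43 CPM with DMSO and Ova and 29.4 ± 2.08 CPM with iBET and Ova, and 40.6 ± 2.46 and 30.6 ± 4.64 CPM with IC (SD, n = 5). The groups did not overlap in either stimulus, with DMSO libraries from 35.1 CPM up in Ova and iBET libraries up to 31.6 CPM. The fall was 1.33-fold in both Ova (log2 fold change -0.41 ± 0.09, adjusted p = 0.0009992 by edgeR) and IC (-0.41 ± 0.09, adjusted p = 0.001064). The fall in IC in mice A and B alone was -0.19 (adjusted p = 0.1597), against -0.54 in mice C, D and E alone (adjusted p = 0.0001484). Nab2 is the one member whose gene overlaps others: of its 2941 exonic bases, 1050 are shared with the antisense transcript Gm16229, 151 with Nemp1 and 40 with Stat6, all on the opposite strand. The strand setting of the counting is not given in the sources used here, so reads in those bases are uncertain. Stat6, with 2212 to 7821 reads per library, was itself lower with iBET (log2 fold change -0.96 in Ova and -1.02 in IC, adjusted p = 7.557e-11 and 3.251e-11 by edgeR), and its part in the Nab2 value was not tested.

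Among the Nr4a genes, Nr4a2 rose with iBET, Nr4a3 was lower within every mouse, and Nr4a1 had few reads and was not called. Nr4a2 (chromosome 2, 57106830 to 57124003, minus strand), known for dopaminergic neurons and for the restraint of inflammatory genes in myeloid cells, had 28 to 136 reads per library. In Ova it stood at 2.49, 2.08, 1.98, 2.07 and 2.10 CPM in mice A to E with DMSO and at 4.89, 4.55, 5.08, 6.12 and 5.02 CPM with iBET. In IC it stood at 2.39, 2.27, 1.31, 1.58 and 2.15 CPM with DMSO and at 3.77, 3.75, 5.69, 5.53 and 5.84 CPM with iBET. The highest DMSO library was at 2.49 CPM and the lowest iBET library at 3.75 CPM, so the drug groups did not overlap. The rise was 2.39-fold in Ova (log2 fold change 1.26 ± 0.17, adjusted p = 2.92e-06 by edgeR) and 2.52-fold in IC (1.34 ± 0.17, adjusted p = 1.455e-06). In IC, mice A and B alone gave 0.71 (adjusted p = 0.01643) and mice C, D and E alone gave 1.77 (adjusted p = 1.236e-06).

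Nr4a3 (chromosome 4, 48045153 to 48086447, plus strand), an orphan receptor used as a reporter of antigen receptor signals and linked to the migration of dendritic cells, varied more between mice than between groups. With DMSO and Ova, mice A and B had 46.7 and 40.3 CPM and mice C, D and E had 270.2, 208 and 247 CPM. With iBET and Ova these were 36.7 and 36.7 CPM, and 168, 133 and 122 CPM. Over the 20 libraries, the level was 28.7 to 82.1 CPM in mice A and B and 122 to 296 CPM in mice C, D and E, with no overlap. The mean log2 level was higher by 2.21 in mice C, D and E, a 4.62-fold difference, and 33 of the 12465 tested genes, Nr4a3 included, had an offset at least that large in this direction. The sets of mice were drawn from these data, so the offset is a description and has no test.

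Without the mouse in the model, Nr4a3 was not called. The log2 fold change with iBET was -0.71 ± 0.66 in Ova (adjusted p = 0.3709 by edgeR) and -0.49 ± 0.65 in IC (adjusted p = 0.546). With the mouse as a block, Nr4a3 was lower with iBET by -0.58 ± 0.15 in Ova (adjusted p = 0.002725) and by -0.74 ± 0.15 in IC (adjusted p = 0.0003111), and it was lower in 5 of 5 mice in both. The size differed between the sets of mice. In Ova the blocked value was -0.25 in mice A and B (adjusted p = 0.08943) and -0.72 in mice C, D and E (adjusted p = 0.0001261). In IC it was -1.33 in mice A and B (adjusted p = 1.089e-05) and -0.34 in mice C, D and E (adjusted p = 0.01965). The difference between the sets was not tested.

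Nr4a1 (chromosome 15, 101254269 to 101274795, plus strand), also called Nur77, had 6 to 85 reads per library. With DMSO and Ova it had 3.21, 2.08, 0.942, 0.840 and 0.308 CPM in mice A to E, and with iBET and Ova 3.39, 2.06, 0.642, 1.71 and 0.753 CPM. Its order was the reverse of that of Nr4a3, with 1.80 to 3.39 CPM in mice A and B over all groups and 0.308 to 1.71 CPM in mice C, D and E. Nr4a1 and Nr4a3 were the 2 members of 10 whose mean log2 level differed by at least 1 between the sets, against 3.72% of all genes. Within the groups, the 2 genes had a Pearson correlation of -0.81 over the 20 libraries, which share their mice. With iBET, the log2 fold change of Nr4a1 was 0.22 in Ova (95% interval -0.87 to 1.31, adjusted p = 0.7415 by edgeR) and 0.48 in IC (-0.63 to 1.59, adjusted p = 0.4592). Within mice A to E, the log2 difference with iBET in IC was 0.17, 0.29, 0.75, 0.67 and 0.66, higher in 5 of 5, and in Ova it was higher in 3 of 5. With the mouse as a block the value was 0.26 ± 0.27 in Ova (adjusted p = 0.406) and 0.47 ± 0.28 in IC (adjusted p = 0.1469), so Nr4a1 was not called in either fit.

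Some lists of markers of other cells were also apart between the same sets of mice. The summed neutrophil markers (8 of 9 listed genes in the table, S100a8 and S100a9 the most abundant, Elane and Mpo with a median of 0 in the DMSO with Ova group) were 12.3 to 17.7 CPM in mice A and B and 18.8 to 55.4 CPM in mice C, D and E. Mast cell and basophil markers (6 of 6, of which Kit gave most and Fcer1a had a median of 0 in the same group) were 7.96 to 16.7 CPM and 25.1 to 35.0 CPM. Erythroid markers (5 of 5, of which 1 was at 0 in every library) were 0.962 to 3.07 CPM and 4.90 to 15.6 CPM. The sums of the dendritic cell, macrophage, T cell and B cell lists overlapped between the sets. The part of these markers in the Nr4a3 and Nr4a1 offsets was not tested.

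**Figure D4:**
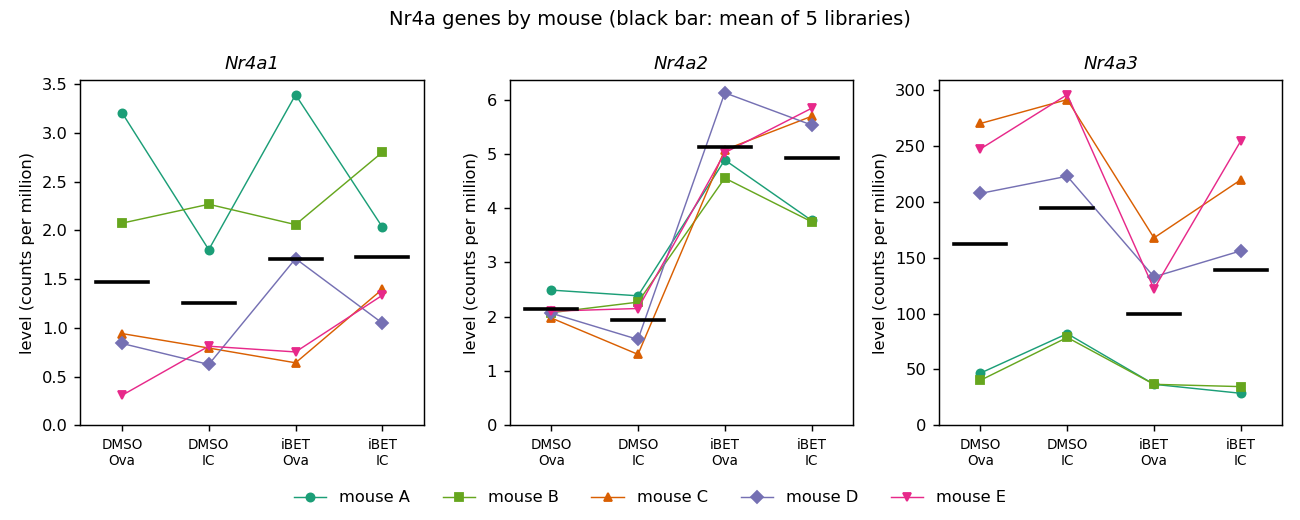
The 3 Nr4a genes in CPM by group, with 1 line per mouse and a black bar for the mean of 5 libraries; vertical axes start at 0 and differ in scale. Nr4a3 lies at 28.7 to 82.1 CPM in mice A and B and at 122 to 296 CPM in mice C, D and E, Nr4a1 shows the opposite order, and Nr4a2 separates by drug.

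Ier2 and Ier3 had the steepest rises of the 10. For Ier2 (chromosome 8, 84661331 to 84662852, minus strand), mice A to E had 43.3, 41.4, 33.8, 32.9 and 27.2 CPM with DMSO and Ova, and 113, 89.6, 114, 91.3 and 102 CPM with iBET and Ova. With IC they had 30.9, 32.0, 31.7, 28.5 and 29.3 CPM with DMSO, and 99.5, 107, 108, 69.9 and 81.4 CPM with iBET. The highest DMSO library was at 43.3 CPM and the lowest iBET library at 69.9 CPM. Ier2 rose 2.85-fold in Ova (log2 fold change 1.51 ± 0.13, adjusted p = 5.357e-09 by edgeR) and 3.05-fold in IC (1.61 ± 0.13, adjusted p = 2.294e-09).

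Ier3 (chromosome 17, 35821684 to 35822923, plus strand) rose from 64.6, 52.9, 46.1, 39.9 and 48.9 CPM in mice A to E with DMSO and Ova to 219, 197, 203, 154 and 192 CPM with iBET and Ova. In IC it rose from 56.5, 65.4, 72.8, 46.5 and 64.2 CPM to 236, 275, 286, 196 and 217 CPM. The lowest iBET library, at 154 CPM, was well above the highest DMSO library, at 72.8 CPM. The rise was 3.82-fold in Ova (log2 fold change 1.93 ± 0.14, adjusted p = 8.265e-10 by edgeR) and 3.96-fold in IC (1.99 ± 0.14, adjusted p = 5.295e-10). Across the 20 libraries Ier2 and Ier3 had a Pearson correlation of 0.95 in log2 level, and 0.70 after the group means were removed; the libraries share mice and treatments.

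**Figure D5:**
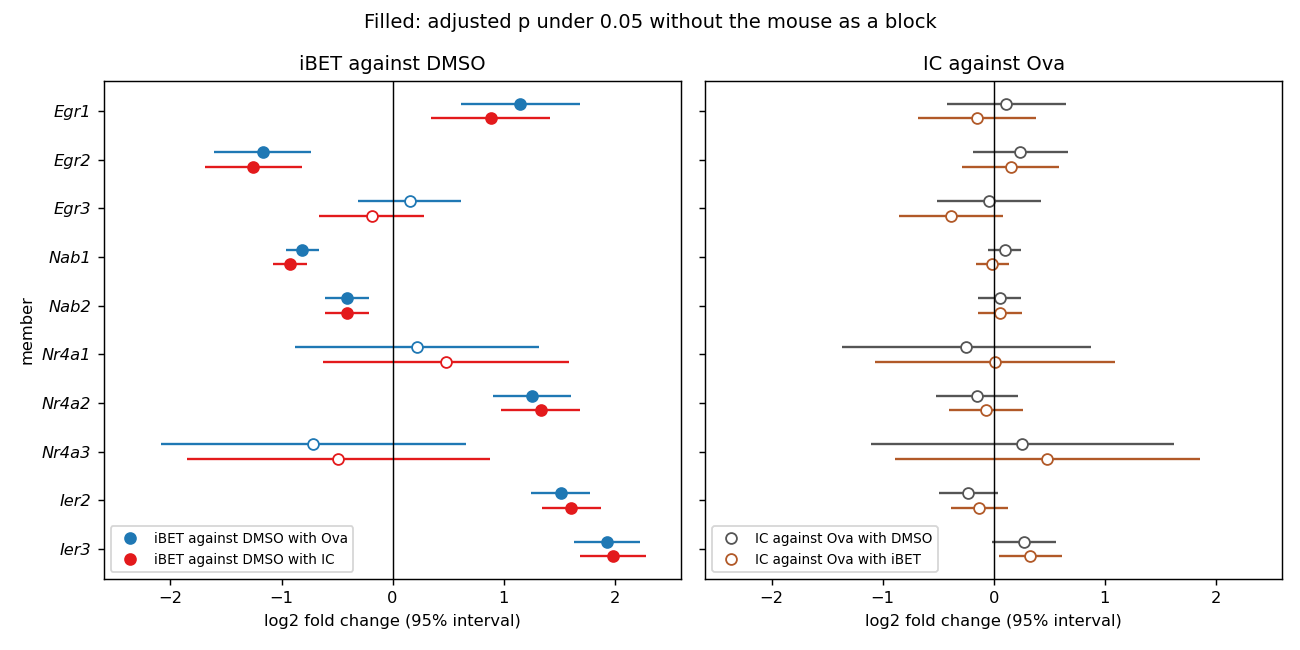
Log2 fold changes of the 10 members with 95% intervals from edgeR, for iBET against DMSO on the left and IC against Ova on the right, with filled circles where the adjusted p without the mouse as a block was under 0.05. On the left, 4 members are called higher and 3 lower with either stimulus, and on the right all circles are open.

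Per kb of exon, the order of the members also shifted with the drug. Ier3 was the highest in all 4 groups, at 44.6 ± 8.14 CPM per kb with DMSO and Ova and 171 ± 21.1 CPM per kb with iBET and Ova (SD, n = 5), and Nr4a1 the lowest, at 0.420 ± 0.332 and 0.488 ± 0.319 CPM per kb. With DMSO and Ova the order after Ier3 was Nr4a3, Egr2, Ier2, Nab2, Egr1, Nab1, Egr3, Nr4a2 and Nr4a1. In that order only Ier2 and Nab2, and Nab1 and Egr3, had ranges of 5 libraries that did not meet. The ranges of the other neighbours overlapped, and neighbours were not compared within mice, so their order is uncertain. With iBET and Ova the order was Ier3, Ier2, Egr1, Nr4a3, Egr2, Nab2, Nab1, Nr4a2, Egr3 and Nr4a1. There Ier3, Ier2 and Egr1 followed each other with no overlap, as did Nab2, Nab1, Nr4a2 and Egr3.

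The second question of the design is what the immune complex adds. Over all genes, IC against Ova gave 20.3% of genes called with DMSO and 11.8% with iBET, but 0 of the 10 members were called by edgeR in either direction, against 9.59% of genes higher and 10.7% lower with DMSO and 5.19% and 6.63% with iBET. DESeq2 without a block also called 0 in either. At an unadjusted p under 0.05, the counts were 0 members with DMSO, against 4123 of the 12465 tested genes, and 1 with iBET (Ier3), against 3312. The estimates ran from -0.25 (Nr4a1) to 0.27 (Ier3) with DMSO and from -0.39 (Egr3) to 0.48 (Nr4a3) with iBET on the log2 scale. The 95% intervals of Nr4a3 were wide, from -1.105 to 1.621 with DMSO and from -0.889 to 1.853 with iBET. Those of Nr4a1 were too, from -1.365 to 0.873 and from -1.069 to 1.094. No member had groups that did not overlap, against 5.97% of genes higher and 6.41% lower with DMSO and 4.57% and 5.46% with iBET. For Egr1 the value was 0.11 with DMSO (95% interval -0.42 to 0.65) and -0.15 with iBET (-0.68 to 0.38), and for Egr2 it was 0.24 (-0.19 to 0.67) and 0.15 (-0.28 to 0.59).

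With the mouse as a block, 2 members were called higher with IC in DMSO (2 of 10, against 18.3% of genes, and 38.1% in either direction) and 1 in iBET (1 of 10, against 14.2%, and 28.9% in either direction). Ier3 was higher with IC by 0.27 ± 0.09 on the log2 scale with DMSO, in 4 of 5 mice (adjusted p = 0.01894), and by 0.33 ± 0.08 with iBET, in 5 of 5 mice (adjusted p = 0.007064). The DMSO value of Ier3 with the block was 0.04 in mice A and B alone (adjusted p = 0.8845) and 0.44 in the other 3 mice (adjusted p = 0.002016). Nr4a3 was higher with IC by 0.44 ± 0.15 with DMSO, in 5 of 5 mice (adjusted p = 0.02729). Here the value was larger in mice A and B: their level went from 46.7 and 40.3 CPM to 82.1 and 78.7 CPM, a blocked value of 0.87 (adjusted p = 0.00212), while mice C, D and E alone gave 0.18 (adjusted p = 0.2518). The sets of mice were drawn from these data, and the difference between them was not tested. With iBET, Nr4a3 in mice A and B was 36.7 and 36.7 CPM with Ova and 28.7 and 34.7 CPM with IC. The other 3 mice went from 168, 133 and 122 CPM with Ova to 219.8, 156 and 255 CPM with IC. The blocked value with iBET was 0.28 over all 5 mice (adjusted p = 0.1818).

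Whether iBET changed the response to IC was tested as an interaction, which called 5 of 12465 genes (0.0401%) and 0 members, each with an adjusted p of 0.9999 by edgeR. At an unadjusted p under 0.05 the interaction held 543 of the 12465 genes and 0 members. With the block, at an adjusted p under 0.05, it held 102 genes (0.818%) and 0 members. The widest intervals were those of Nr4a3 (0.22, 95% interval -1.71 to 2.15) and Nr4a1 (0.26, -1.30 to 1.81), and the narrowest was that of Nab1 (-0.11, -0.32 to 0.10). For Nr4a3 the interaction was -1.17 and -1.05 in mice A and B and 0.28, 0.13 and 0.80 in mice C, D and E on the log2 scale.

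Set against DMSO with Ova, cells with both iBET and IC had the same 7 members called, against 60.9% of all genes. Egr1, Nr4a2, Ier2 and Ier3 were higher (4 of 10, background 29.6%), from 1.00 ± 0.26 for Egr1 to 2.26 ± 0.14 for Ier3 on the log2 scale. Egr2, Nab1 and Nab2 were lower (3 of 10, background 31.3%), by -1.02 ± 0.21, -0.82 ± 0.07 and -0.35 ± 0.09. These comparisons share libraries with those above.

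The RNA of genes listed as inputs to these genes moved with iBET in both directions. The activity of the proteins they encode was not measured. Of 26 tested genes for ERK and SRF inputs to the Egr genes, 13 rose and 8 fell with iBET in Ova, against 27.7% higher and 28.9% lower over all genes. In IC 12 rose and 8 fell, against 27.1% and 29%. With the mouse as a block the counts were 13 and 9 in Ova (background 33.5% and 35.2%) and 13 and 12 in IC (32.6% and 35.4%). The median log2 fold change of the list was 0.21 in Ova and 0.04 in IC, against -0.003 and -0.005 over all genes. Elk3, a ternary complex factor that works with SRF on the CArG box, fell by -1.99 ± 0.08 in Ova and -1.89 ± 0.08 in IC (adjusted p = 1.459e-13 and 3.181e-13 by edgeR), while Elk1, of the same family, rose by 0.80 ± 0.07 in Ova (adjusted p = 1.264e-08). Mknk2, a kinase activated by ERK, rose by 1.43 ± 0.11 and 1.59 ± 0.11 (adjusted p = 2.677e-09 and 6.5e-10), and Nras, a small GTPase upstream of ERK, fell by -0.83 ± 0.08 and -0.90 ± 0.08 (adjusted p = 2.486e-08 and 8.678e-09). Rps6ka5, the kinase MSK1, rose in IC by 0.69 ± 0.12 (adjusted p = 4.03e-05).

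With IC, 5 of these 26 genes rose and 6 fell with DMSO, against 9.59% higher and 10.7% lower over all genes, and 3 rose and 4 fell with iBET, against 5.19% and 6.63%. With the block, 8 rose and 7 fell with DMSO (background 18.3% and 19.8%), and 6 rose and 5 fell with iBET (14.2% and 14.7%). Rps6ka2, a kinase of the RSK family that ERK activates, rose with IC by 1.80 ± 0.10 with DMSO and by 0.92 ± 0.10 with iBET (adjusted p = 9.276e-10 and 2.8e-06 by edgeR). It was the 1 gene of the 4 pathway lists past the threshold in the interaction without the block (-0.89 ± 0.13, adjusted p = 0.02892), and it is named for that after its value was seen. Grb2, an adaptor that links receptors to Ras, rose by 0.61 ± 0.12 and 0.39 ± 0.12 (adjusted p = 0.00113 and 0.03447). Mknk1 fell by -0.54 ± 0.06 and -0.41 ± 0.06 (adjusted p = 3.928e-06 and 0.0001401), Mapk14, the kinase p38 alpha, fell with DMSO by -0.53 ± 0.06 (adjusted p = 3.356e-06), and Araf fell with iBET by -0.38 ± 0.07 (adjusted p = 0.001866).

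For CREB, NFAT and MEF2 inputs to the Nr4a genes, 6 of 25 tested genes rose and 4 fell with iBET in Ova (background 27.7% and 28.9%), and 7 rose and 5 fell in IC (27.1% and 29%), with medians of 0.02 and 0.08. Of these 4 shares, 3 were below those of all genes, and the rises in IC were near theirs. With the block the counts were 8 and 6 in Ova (background 33.5% and 35.2%) and 9 and 5 in IC (32.6% and 35.4%). Mef2c, a MEF2 factor, rose by 0.76 ± 0.16 and 1.33 ± 0.17 (adjusted p = 0.0005771 and 2.093e-06 by edgeR), and Hdac7, a deacetylase that represses MEF2 targets, fell by -1.59 ± 0.29 and -1.47 ± 0.30 (adjusted p = 0.0001183 and 0.0003428). Rcan1, an inhibitor of calcineurin, rose by 0.48 ± 0.07 and 0.65 ± 0.07 (adjusted p = 1.017e-05 and 2.105e-07), and Atf1, a CREB relative, fell by -0.70 ± 0.09 and -0.88 ± 0.09 (adjusted p = 1.515e-06 and 6.847e-08). With IC, 0 rose and 2 fell with DMSO (Mef2c by -1.05 ± 0.18 and Hdac5 by -0.46 ± 0.14, adjusted p = 0.0003594 and 0.02519), and 0 were called with iBET. The block gave 2 higher and 6 lower with DMSO, and 2 higher and 5 lower with iBET, against 18.3% and 19.8%, and 14.2% and 14.7%, of all genes.

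Among other immediate early genes, 13 of 39 tested rose and 5 fell with iBET in Ova (background 27.7% and 28.9%), and 14 rose and 10 fell in IC (27.1% and 29%), with medians of 0.11 and 0.15. With the block the counts were 16 and 10 in Ova (background 33.5% and 35.2%) and 19 and 12 in IC (32.6% and 35.4%). Dusp2, a phosphatase of ERK, rose by 1.87 ± 0.38 in Ova (adjusted p = 0.0003435 by edgeR, higher in 4 of 5 mice), Phlda1 by 1.65 ± 0.32 in Ova and 1.59 ± 0.31 in IC (adjusted p = 0.0001993 and 0.0002459), and Gadd45a, a stress gene, by 1.44 ± 0.13 in IC (adjusted p = 2.03e-08). Tnfaip3, an inhibitor of NF-kB signals, fell by -1.75 ± 0.21 and -1.48 ± 0.20 (adjusted p = 7.06e-07 and 4.123e-06), Atf3 fell by -1.51 ± 0.16 in Ova (adjusted p = 8.485e-08), and Ptgs2, the inducible cyclooxygenase, fell by -1.55 ± 0.61 in IC (adjusted p = 0.03571).

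With IC, 9 of these 39 genes rose and 5 fell in DMSO, against 9.59% and 10.7% of all genes, and 6 rose and 3 fell in iBET, against 5.19% and 6.63%. With the block the counts were 14 and 8 in DMSO (background 18.3% and 19.8%), and 13 and 7 in iBET (14.2% and 14.7%). Ptgs2 rose with IC by 2.34 ± 0.63 with DMSO (adjusted p = 0.01322 by edgeR, higher in 4 of 5 mice) and Dusp2 by 1.27 ± 0.40 (adjusted p = 0.02977). With iBET, Maff rose by 1.04 ± 0.25 and Tnfaip3 by 1.01 ± 0.21 (adjusted p = 0.01013 and 0.00367). Klf10, a zinc finger factor induced by TGF beta, fell by -1.10 ± 0.15 with DMSO and -2.12 ± 0.15 with iBET (adjusted p = 3.725e-05 and 2.051e-08). Klf4 fell with DMSO by -0.58 ± 0.13 and Klf2 with iBET by -0.53 ± 0.15 (adjusted p = 0.003052 and 0.02366).

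Of 18 tested nuclear receptors beside the Nr4a genes, 2 rose and 7 fell with iBET in Ova (background 27.7% and 28.9%), and 2 rose and 7 fell in IC (27.1% and 29%), with medians of -0.15 and -0.16. With the block the counts were 4 and 8 in Ova (background 33.5% and 35.2%) and 3 and 8 in IC (32.6% and 35.4%). Rarg, a retinoic acid receptor, fell by -2.26 ± 0.17 and -2.23 ± 0.18 (adjusted p = 1.453e-09 and 2.106e-09 by edgeR), and Nr1h3, the oxysterol receptor LXR alpha, fell by -2.04 ± 0.22 and -1.75 ± 0.22 (adjusted p = 1.587e-07 and 9.017e-07). Rora, a receptor of the ROR family, rose by 0.58 ± 0.13 and 0.35 ± 0.13 (adjusted p = 0.0006839 and 0.0228), and Nr1h2, LXR beta, by 0.25 ± 0.09 in both (adjusted p = 0.01908 and 0.01945). With IC, 2 rose and 5 fell with DMSO (background 9.59% and 10.7%), and 1 rose and 1 fell with iBET (5.19% and 6.63%). With the block the counts were 4 and 5 both with DMSO (background 18.3% and 19.8%) and with iBET (14.2% and 14.7%). Rara fell by -0.58 ± 0.11 with DMSO and -0.45 ± 0.11 with iBET (adjusted p = 0.001191 and 0.01387), Rarg fell by -0.57 ± 0.16 with DMSO (adjusted p = 0.01775), Rora and Ppard rose with DMSO by 0.57 ± 0.13 and 0.47 ± 0.16 (adjusted p = 0.00421 and 0.04689), and Pparg rose with iBET by 0.37 ± 0.12 (adjusted p = 0.0421).

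The genes whose log2 level over the 20 libraries was most like each member were sought among the 9781 or 9782 other genes with a mean of at least 100 reads. Egr1 was nearest to Slc37a3, Orc6 and Nfkbiz, with Pearson correlations of 0.93, 0.92 and 0.91, and Egr2 to Ado, Mapkapk3 and Mrps18b, with 0.95, 0.95 and 0.94. Nab1 was nearest to Tagap, Gpr183 and Ssrp1, each at 0.98, and Nab2 to Slc22a4, Pigc and Tifa, at 0.94, 0.93 and 0.93. For Nr4a2 the nearest were Slc25a30, Heatr5b and Noa1, at 0.96, 0.96 and 0.95. For Nr4a3, whose level followed the mouse, they were Stk39, Arap2 and Nfkb1, each at 0.98. For Nr4a1 they were Coq2, Mir702 and Plod3, at 0.89, 0.88 and 0.87, and for Egr3 Spc25, Wdhd1 and Kif18b, at 0.70, 0.70 and 0.69. Ier2 was nearest to Ahcy and Csrnp2, each at 0.98, and Ier3 to 3110002H16Rik, Fzd5 and E330009J07Rik, at 0.995, 0.98 and 0.98. Among the members themselves, the most alike to Egr2 was Nab1 (0.90), to Egr1 and Nr4a2 it was Ier2 (0.86 and 0.90), to Nab2 it was Nab1 (0.81), to Nr4a3 it was Egr2 (0.34), and Egr3 and Nr4a1 were most like each other (0.61). These correlations describe 20 libraries that share 5 mice and 4 treatments.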

How the data were processed

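RNA of the 20 BMDC libraries was made into libraries by the authors with a SMARTer total RNA pico input kit. Per the labels and the methods, reads were trimmed with Trim Galore, aligned to mm10 with HISAT2 and counted per gene with featureCounts; the gene annotation and the strand setting are not given in the sources used here. The deposited table holds raw counts, 1 column per library, with no column of other samples, and a table of normalised counts was not used. Counts were scaled by TMM and filtered with filterByExpr, which left 12465 genes, and fitted in edgeR 4.0.16 (R 4.3.3) with a mean for each of the 4 groups and no other term, by the quasi-likelihood test with Benjamini-Hochberg adjustment over all tested genes. The SE is the absolute log2 fold change divided by the square root of F. Unless a block is named, p-values are from this fit. CPM uses the TMM-scaled library size, the log2 scale a prior count of 2, and levels per kb the union of exons in GENCODE M21. The scripts were tested on simulated data.

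The 5 replicates of a group are 5 mice, and each mouse gave all 4 groups, so the libraries are paired by animal: deviations from the group means correlated at 0.307 to 0.675 in the 30 pairs from the same mouse and at -0.576 to 0.557 (mean -0.127) in the 120 pairs from different mice. A fit with the mouse as a block was therefore made as well. No pair of replicates agreed within sampling noise (chi-square per degree of freedom of 12.8 to 153 in 40 pairs).

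The alternatives were DESeq2 1.42.0 with and without the block and its size factors, library size alone, surrogate variables (sva 3.50.0), no filter, only the libraries compared, each mouse left out, either set of mice, and a fold threshold; the sets of mice with the block were added after the data were seen. The members and lists were chosen with earlier results of these data known. Named genes were the members, the 2 largest rises and falls past the threshold per list and pairwise comparison, and the 3 genes most like each member, of which 1 is not reported here.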

Additional observations from a re-analysis of the deposited data

Results flagged for a closer look

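In 40 groups of 5 libraries, 1 held a library apart from the rest by Dixon's test, which chance alone gives in about 1 in 20 groups. Nr4a2 in mouse A with DMSO and Ova was at 2.49 CPM, and the other 4 libraries were between 1.98 and 2.10 CPM, a gap of 0.756 of the range (critical value 0.71). Nr4a2 had 66 reads in this library, and the value lay below all iBET libraries.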

How the results depend on the processing

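The 7 members called with iBET in Ova and in IC kept their direction under all 16 alternatives. They also kept their side of the threshold, except Egr2 and Nab2 in IC in mice A and B alone (values in the report). The other exception was where a log2 fold change of at least 1 was asked for. That left 5 members called in Ova, 4 in IC and 4 for iBET with IC against DMSO with Ova. Of the 12465 tested genes it left 1865, 1867 and 1994 called. The share of members was thus above that of all genes in each, and this difference was not tested. Leaving out any 1 mouse changed no member's call.

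The comparisons of IC with Ova depended on the pairing. With the mouse as a replicate block, genes called were 4755 in DMSO and 3601 in iBET, against 2531 and 1474 without it, the interaction had 102 against 5, and members called were 2 and 1. The block changed no other call than those of Nr4a3 and Ier3 given above. DESeq2 with the block gave 4611, 3594 and 184 genes and 2 and 1 members, and DESeq2 without it 25 genes in the interaction. Surrogate variables gave 2687 genes for IC in iBET, 50 in the interaction and 1 member in each IC comparison. Asking for a log2 fold change of at least 1 gave 1865, 1867, 184, 101, 3 and 1994 genes (iBET in Ova, iBET in IC, IC in DMSO, IC in iBET, interaction, both against neither). Mice A and B alone gave 500, 296 and 0 genes for IC in DMSO, IC in iBET and the interaction, and 1 member for IC in DMSO. With the block they gave 1265 and 0 genes for IC in DMSO and the interaction, and 2 members. Mice C, D and E alone gave 13 genes in the interaction. With the block they gave 4494 for IC in DMSO, 2038 for IC in iBET, 65 in the interaction and 2 members in each IC comparison. All these member counts are out of 10, and the gene counts are to be read against the 12465 genes tested in the main fit. Without 1 mouse at a time, genes called ran from 1180 to 2477 for IC in DMSO, from 643 to 1177 for IC in iBET and from 0 to 2 in the interaction. Nr4a1, Nr4a2 and Egr3 had the fewest reads of the members, and the part of depth in their values was not tested; nor was the cause of these changes.

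Scaling by library size alone shifted the median of all genes by -0.108 for IC in DMSO, -0.107 for IC in iBET and -0.159 for both against neither. It cut the share of calls that were higher from 47.2% to 18.3%, from 43.9% to 13.4% and from 48.6% to 31.9%, gave 2343 genes for IC in iBET, and called 1 member, Ier2, lower with IC in DMSO.

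Signs turned only in estimates that were not called, on the log2 scale. For IC in DMSO: Nab1 -0.00905 and Nab2 -0.052 by library size. Egr3 was 0.00696 with surrogate variables. In mice A and B alone, Nab2 was -0.12 and Nr4a2 0.0014 (with the block -0.121 and 0.0068). In mice C, D and E alone, Nr4a1 was 0.078 and Egr3 0.097 (with the block 0.107 and 0.11, and Egr1 -0.00904). Without 1 mouse, Egr3 ran from -0.171 to 0.095 and Nr4a1 from -0.449 to 0.136. For IC in iBET: Nab2 -0.053 and Nr4a1 -0.088 by library size, and Nab2 -0.0033, Egr2 -0.0055 and Nr4a1 -0.057 with surrogate variables. With mice A and B alone, Nr4a1 was -0.18, Nr4a3 -0.201, Nab1 0.013 and Ier2 0.035 (with the block -0.171, -0.201, 0.0134 and 0.0396). In mice C, D and E alone, Nab2 was -0.101 and Nr4a2 0.067 (with the block -0.101 and 0.072). Without 1 mouse, Nab1 ran from -0.0397 to 0.0065, Nab2 from -0.017 to 0.137 and Nr4a1 from -0.171 to 0.369. For the interaction: Nab2 -0.011 and Nr4a3 -0.162 with the block, -0.0074 and -0.187 with DESeq2 and the block, and -0.021 and -0.172 with surrogate variables. Nab2 was -0.00035 by library size and -0.00082 with no filter. On mice A and B alone, Nr4a2 was -0.319, Nr4a3 -1.07 and Egr2 0.158 (with the block -0.322, -1.07 and 0.154). In mice C, D and E alone, Ier3 was -0.117, Ier2 -0.194 and Nab2 -0.291 (with the block -0.102, -0.204 and -0.291). Without 1 mouse, Nab2 ran from -0.149 to 0.11, Nr4a2 from -0.067 to 0.194, Nr4a3 from -0.026 to 0.317, Ier2 from -0.046 to 0.21 and Ier3 from -0.022 to 0.117. For both against neither, Nr4a1 was -0.147 in mice A and B alone and -0.138 with the block.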
